A study of Mus musculus with 360 samples.

Results

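The G2 and mitosis genes are 39 genes whose products carry a cell from the end of DNA replication through mitosis to the separation of the daughter cells. They were taken by symbol from a list of genes known for these roles, not by their values, and all 39 were found among the 24781 genes of the deposited table. They were described across 10 groups of single mouse cells. C1498 is a mouse cell line labelled as acute myeloid leukemia, and the study heated it at 45 °C for 10 min or held it at 37 °C as the control, imaged the cells, and picked single cells with an automated imaging and picking instrument (ALPS). Each sample was 1 cell, 360 in all, and molecules were counted by barcodes (UMIs, unique molecular identifiers) on RNA copied from its poly(A) tail.

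Of the 10 groups, 6 were unheated: 37 °C at -1 h (11 cells), 1 h (11), 5 h (6), 10 h (6) and 15 h (11) from the end of the control heating, and the 45 °C arm at -1 h (6 cells), which was picked before its heating. The other 4 were heated at 45 °C and picked at 1 h (13 cells), 10 h (52), 15 h (21) and 5 h, the largest group with the remaining 61.9% of the 360 cells. No label names a culture, so each group counted as 1 sample, and no test between groups was made. All cells came from 1 line, with no genetic change or added agent named by the labels. The summed UMIs per group ran from 173274 (37 °C, 10 h) to 6809100 (45 °C, 5 h), and the median cell from 18741 (45 °C, 10 h) to 40544 UMIs (37 °C, -1 h). Levels are CPM, the UMIs of a gene with the total of the group or cell scaled to 1000000. Intervals are 95% and exact. Those on levels and ratios hold counting error of UMIs only, and those on shares of cells hold counting error of cells drawn independently from 1 sample, so neither covers how cultures vary or tests a condition. Of 10 myeloid markers, only 1 had any UMI in the unheated cells, and Lyz2, Mpo, Elane, Spi1, Csf1r, Itgam, S100a8, S100a9 and Kit were at 0. All 4 general leukocyte markers had UMIs, and 6 of 12 T and NK cell markers did, so the myeloid part of the label is not borne out by these markers.

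As background, cyclin A and B bind the kinase Cdk1 at the end of G2, and the active complex, with Plk1 and the Aurora kinases, condenses the chromosomes and builds the spindle. The spindle checkpoint (Bub1, Bub1b, Mad2l1, Ttk) holds the anaphase-promoting complex (APC/C) in check until every chromosome is attached. Its activator Cdc20 and its ubiquitin-conjugating enzyme Ube2c then mark cyclin B for destruction. The RNAs of most of these genes are made late in the cycle, and their promoters often carry a CHR element and CCAAT boxes, which the DREAM, B-MYB, FOXM1 and NF-Y complexes are known to read.

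Promoters of 7 members are printed as examples, picked to show stretches with and without these elements. Each is the 100 bases before the annotated start, 5′ to 3′ on the gene's own strand, from RefSeq on GRCm38.p6 (the mm10 build). Capitals mark CHR letters (TTTGAA, its reverse complement TTCAAA, or TTCGAA) and CCAAT letters (CCAAT or its reverse complement ATTGG). None of the marked stretches overlap. Mad2l1 and Birc5 have no marked letters, and the other promoters printed have both kinds. Most members have no CHR letters in the 250 bases before the start, as counted below, so the marked promoters are not typical. Cdk1 lies at chr10:69352913-69353012 (minus strand), Cdc20 at chr4:118437344-118437443 (minus), Ube2c at chr2:164769829-164769928 (plus) and Top2a at chr11:99024190-99024289 (minus). Kif11 lies at chr19:37376282-37376381 (plus), Mad2l1 at chr6:66535121-66535220 (plus) and Birc5 at chr11:117849137-117849236 (plus).
Cdk1: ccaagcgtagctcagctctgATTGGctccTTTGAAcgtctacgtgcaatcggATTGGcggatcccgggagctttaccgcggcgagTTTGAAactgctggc
Cdc20: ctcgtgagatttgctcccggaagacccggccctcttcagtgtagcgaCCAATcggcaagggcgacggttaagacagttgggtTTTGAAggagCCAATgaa
Ube2c: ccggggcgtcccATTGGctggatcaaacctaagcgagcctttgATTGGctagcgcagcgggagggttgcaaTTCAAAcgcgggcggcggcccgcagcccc
Top2a: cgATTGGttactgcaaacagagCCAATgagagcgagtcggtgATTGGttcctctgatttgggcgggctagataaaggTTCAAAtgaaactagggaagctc
Kif11: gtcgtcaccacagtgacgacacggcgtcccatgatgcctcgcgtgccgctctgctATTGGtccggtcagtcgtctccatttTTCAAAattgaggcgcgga
Mad2l1: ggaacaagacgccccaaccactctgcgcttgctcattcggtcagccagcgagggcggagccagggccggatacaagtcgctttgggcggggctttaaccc
Birc5: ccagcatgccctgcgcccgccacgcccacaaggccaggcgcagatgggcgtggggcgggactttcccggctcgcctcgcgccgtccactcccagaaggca

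Over the window from 250 bases before to 50 after the start, 34 of the 39 members had a RefSeq promoter. CHR letters stood in 26 of the 34 (76.5%), against 21.7% of the 27025 genes with a promoter. CCAAT letters stood in 27 (79.4%), against 41.1%, and both in 23 (67.6%), against 8.61%. Birc5, Mad2l1, Nusap1 and Tacc3 had neither, which says only that these letters are not in this window. In the shorter window from 100 bases before to 50 after the start, 20 members (58.8%) held both, against 2.40% of all genes. In the 250 bases before the start alone, 13 of the 34 had CHR letters, against 19.6% of all genes. The CHR letters lay close to the start: 16 members (47.1%) had them within the 50 bases after it, against 2.87% of all genes, and these matches are not printed. A gene with several annotated starts counted where any of them held the letters.

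**Figure D1:**
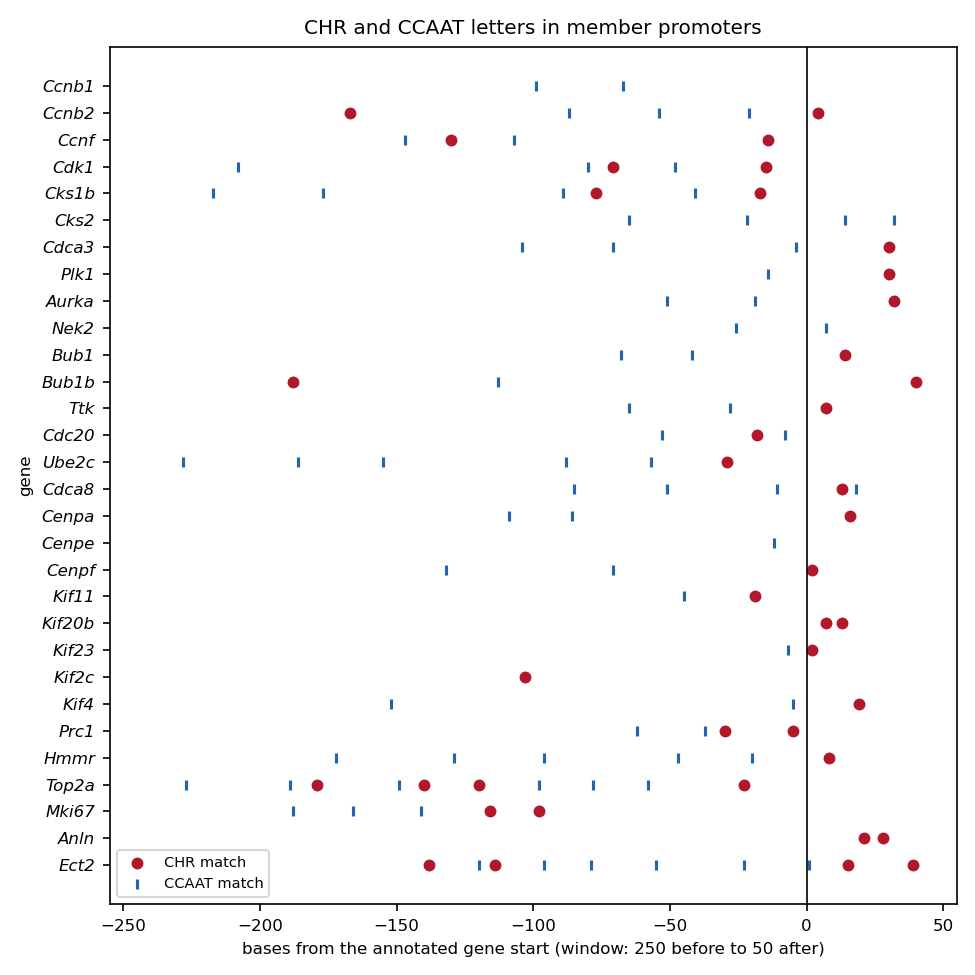
Positions of CHR letters (red points) and CCAAT letters (blue ticks) in the promoters of the 30 members that had a match, in bases from the annotated start (x axis), 1 gene per row in order of role. Most CHR matches sit near or just after the start and most CCAAT matches upstream of them.

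Single members were thinly counted in the small groups, and 37 of the 39 reached the minimum for a ratio at -1 h, 38 at 1 h and all at the later times. Their summed level was 5754 CPM at 37 °C, -1 h (lowest, median and highest cell 2721, 6059 and 8548), 5850 CPM at 1 h (1090, 6128 and 8663) and 4791 CPM at 5 h (2681, 4577 and 8105). It was 5171 CPM at 37 °C, 10 h (3411, 5500 and 6827) and 6145 CPM at 15 h (1740, 5679 and 8786). The unheated 45 °C arm held 4306 CPM (1633, 4039 and 7133), the lowest of the 6 unheated groups. The heated groups held 4592 CPM at 1 h (1526, 2474 and 8988), 3983 CPM at 5 h (502, 3403 and 8675), 5292 CPM at 10 h (0, 4705 and 9702) and 4658 CPM at 15 h (0, 4624 and 8919). Only the heated group at 5 h lay below all 6 unheated groups, and the cells of all groups overlapped widely.

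**Figure D2:**
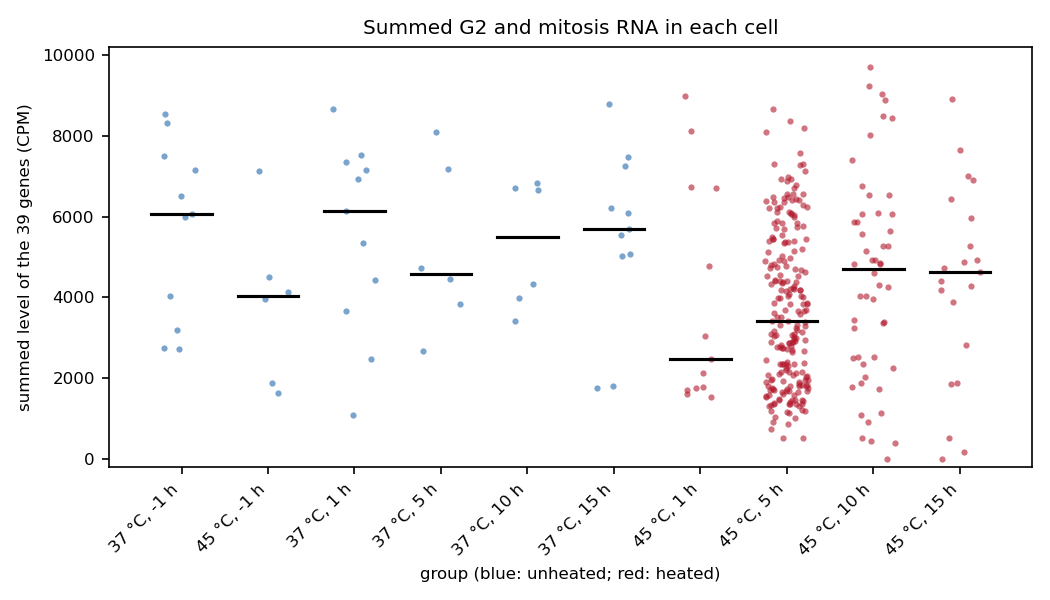
Summed level of the 39 genes in each cell (y axis, CPM), with 1 point per cell, blue for unheated and red for heated groups, and a bar at the median cell. The heated group at 1 h has most of its cells low and a few high, with the median cell at 2474 CPM, and the heated cells at 5 h fill the range from 502 to 8675 CPM.

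Of the heated cells at 5 h, 78.9% lay below the median unheated cell of 5534 CPM (exact interval 72.98 to 84.1%). The shares were 9 of 13 at 1 h (69.2%), 34 of 52 at 10 h (65.4%, 50.9 to 78.03%) and 15 of 21 at 15 h (71.4%). Median cells of the single unheated groups ran from 4039 CPM (45 °C arm before heating) to 6128 CPM (37 °C, 1 h). In that 45 °C arm even the upper quartile, 4413 CPM, lay below 5534 CPM. A group could thus lie mostly below that value without heat. Few heated cells lay below the lowest unheated cell of 1090 CPM: 0 of 13 at 1 h, which allows a share of up to 24.7%, then 7 cells at 5 h (3.14%), 6 of 52 at 10 h (11.5%) and 3 of 21 at 15 h (14.3%). Most of these cells were shallow. Of the 6 at 10 h, 4 had under 5000 UMIs in total and held at most 3 UMIs of the members, while 1 of the 3 at 15 h was deep, with 51204 UMIs in total and 26.5 of the members. The part of depth in these shares was not tested.

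Before heating, the 45 °C arm already held less mitotic RNA than the 37 °C arm. Of 37 members measured there, 33 stood lower, where 49% of all measured genes did, and the median log2 ratio was -0.34, beside 0.01 over all genes. Cyclin B1 (Ccnb1), the partner that brings Cdk1 into mitosis, was at 34.9 CPM (lowest, median and highest cell 18.9, 39.4 and 53.8) in the 45 °C arm and at 196.1 CPM (0, 216.7 and 374) in the 37 °C arm. All 6 cells of the 45 °C arm were low, and the log2 ratio was -2.40 (-3.84 to -1.39). The kinase Nek2, which splits the centrosomes, stood at -1.69, the centromeric histone Cenpa at -1.38 and Ube2c at -1.35. In all, 7 members were at least 2-fold lower, where 4.52% of genes were, and the others were Bub1b (-1.09), Ccnb2 (-1.09) and Cdc20 (-1.06). The highest ratios were those of Aurkb (0.31), Birc5 (0.17) and Cks1b (0.14). S phase genes were higher in that arm, with a median of 0.47, so the 6 cells differed in cell cycle RNAs before any heat. Without 1 cell the 2-fold call ended for Ccnb2 (-0.75 without cell 6 of the 45 °C arm), Bub1b (-0.96 without cell 1) and Cdc20 (-0.81 without cell 5). Without cell 6, the cell with the most RNA of these genes in that arm, 15 members were at least 2-fold lower.

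The unheated groups therefore give the spread that the heated groups are read against. Among them, 15 members were lowest at 37 °C, 5 h and 14 in the 45 °C arm before heating, and 14 were highest at 37 °C, 15 h. Aurora kinase A (Aurka) was at 8.204 CPM (2 UMIs) at 37 °C, 5 h and at 11.5 CPM (2 UMIs) at 10 h, and between 29.9 and 70.8 CPM in the other 4. Against 37 °C at -1 h, the members had medians of 0.03 (1 h), -0.35 (5 h), -0.08 (10 h) and 0.14 (15 h), 4 comparisons with 1 shared denominator. At 5 h in that arm 7 members were at least 2-fold lower (5.59% of all genes), from Aurka at -2.27 and the spindle protein Nusap1 at -1.53 to Cenpa at -1.03, and the kinesin Kif4 was 1.19 higher. A control group of 6 cells can thus stand 2-fold away from another in several of these genes without heat.

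**Figure D3:**
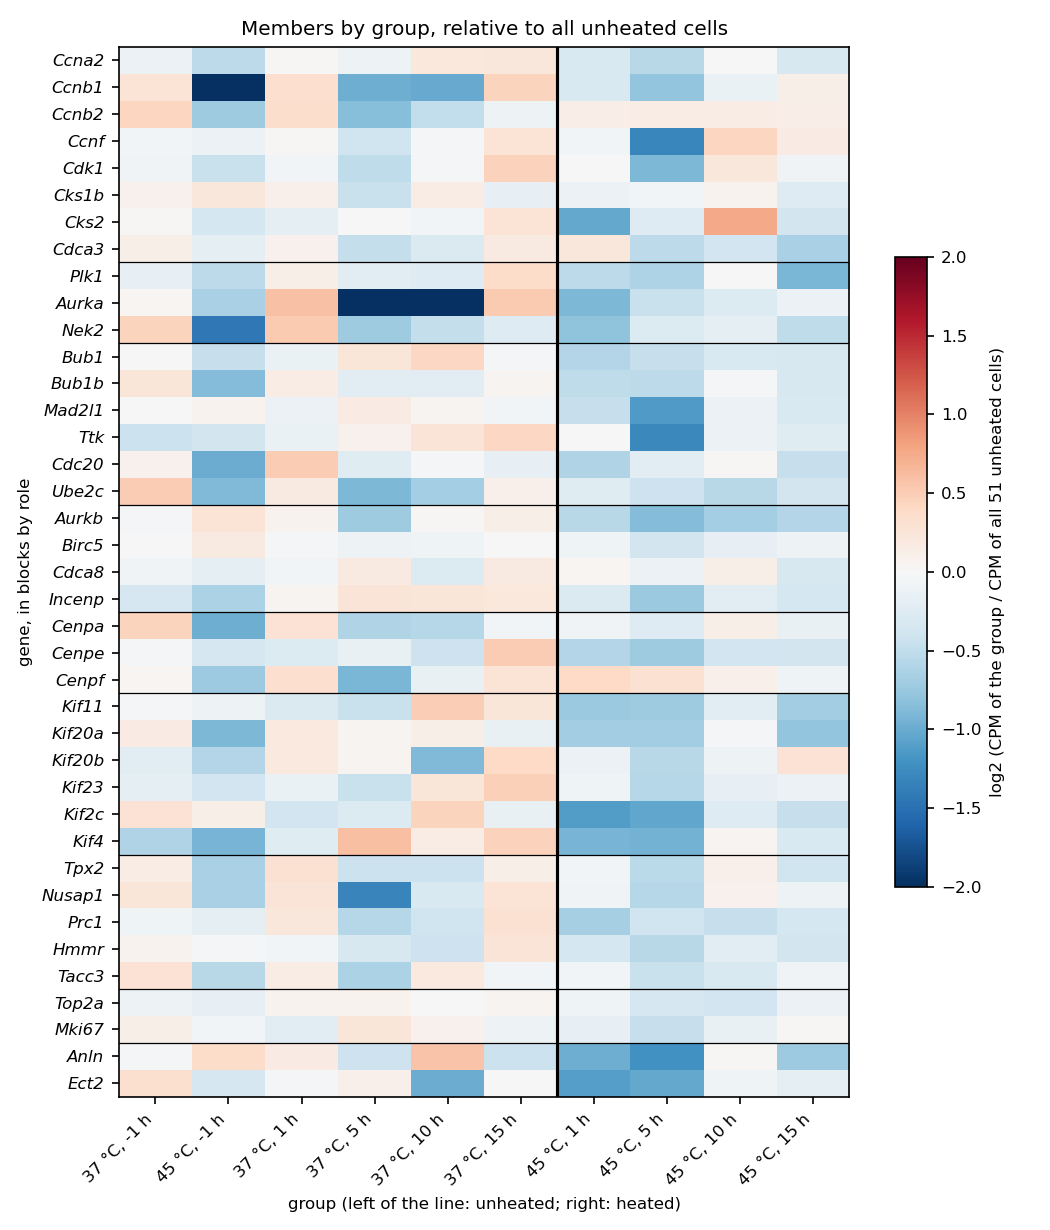
Level of each member (rows, in blocks by role) in each group (columns), as log2 of the group's CPM over the CPM of all 51 unheated cells. Red is higher and blue lower, the colour stops at 2 on either side, and the line parts unheated (left) from heated groups (right). The column of heated cells at 5 h is blue for nearly all genes, and single unheated groups carry dark cells for Ccnb1 and Aurka.

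At 1 h after heating, the members stood below the 37 °C group of the same time. Of 38 measured, 31 were lower, where 63% of all genes were, with a median of -0.35 beside -0.14 over all genes. Aurka (-1.45) and Nek2 (-1.30) had the lowest ratios, and Plk1, the kinase of centrosomes and kinetochores, stood at -0.64. Cdc20 was at 156.3 CPM (lowest, median and highest cell 31.5, 83.9 and 394) in heated cells and at 336 CPM (0, 289 and 752) at 37 °C, and its log2 ratio was -1.10 (-1.55 to -0.67). Ect2, which starts the cleavage furrow through the GTPase RhoA, was the last of the 4 members at least 2-fold lower, at -1.06, where 6.30% of genes were. The highest were Cdca3, a trigger of mitotic entry, at 0.15, the checkpoint kinase Ttk at 0.13 and the passenger protein Cdca8 at 0.09. Top2a and Mki67 stood close to their controls, at -0.15 and 0.06. Against the 6 unheated groups, 9 of the measured members lay below all of them, where 16.7% of genes did. They were Cks2, Bub1, Mad2l1, Cenpe, Kif11, Kif2c, Kif4, Prc1 and Ect2. Cdca3 and Cenpf lay above all 6, where 9.25% of genes did.

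The 1 h ratio turned with the control. Against the 45 °C arm before heating, the median of the members was 0.21 and the summed level 0.09, and Cdc20 stood at 0.36, since that arm was itself low. Without 1 control cell, Cdc20 stood at -0.97 (without cell 4 of 37 °C, 1 h) and Ect2 at -0.84 (without cell 7). Without cell 1 of the heated group, 9 members were at least 2-fold lower. S phase genes stood higher than at 37 °C at the same time, at a median of 0.36 with 29 of 34 higher, and their part in the members' ratio was not tested.

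The heated cells at 5 h, the largest group, held the lowest summed level of the members, while the median cell was lowest in the heated group at 1 h. Over all unheated cells, 37 of the 39 members stood lower, where 71.4% of all genes did, and the median was -0.55 beside -0.23 over all genes. The summed level was lower by 0.48 on the log2 scale (-0.51 to -0.44), but against the 45 °C arm before heating it stood at -0.11. Against the range of the 6 unheated groups, 20 members lay below all of them, where 18.4% of genes did, and 0 lay above, where 7.32% did. These 20 came from every role: Ccna2, Ccnf, Cdk1 and Cdca3 among the entry genes, Plk1 among the kinases, Mad2l1 and Ttk in the checkpoint, and Aurkb, Birc5 and Incenp of the chromosomal passenger complex. The rest were Cenpe, the kinesins Kif11, Kif23, Kif2c and Kif4, the spindle protein Hmmr, Top2a, Mki67, Anln and Ect2.

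Mad2l1 encodes the checkpoint protein that binds Cdc20. It was at 73.4 CPM (lowest, median and highest cell 0, 57.3 and 458) in heated cells at 5 h and at 180 CPM (143.6, 181.4 and 226) at 37 °C, 5 h, and it lay between 149.1 and 180 CPM in all 6 unheated groups. Every one of the 6 control cells stood above the median heated cell, while the highest heated cell stood above them all. The log2 ratio was -1.31 (-1.74 to -0.82), 2.48-fold lower, and over all unheated cells -1.14. After thinning every cell to 5000 UMIs, 31.1% of heated cells (25.1 to 37.6%) had a Mad2l1 UMI, against 49.02% of unheated cells (34.8 to 63.4%). Unthinned, the shares were 73.5% and 98.04%.

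Cdk1, the kinase of mitotic entry, was at 93.99 CPM (0, 68.9 and 597) in heated cells at 5 h, and at 123.1 CPM (17.8, 130 and 323) at 37 °C, 5 h. The 6 unheated groups ran from 123.1 to 243 CPM, so the heated level lay under the lowest of them. The log2 ratio was -0.41 (-0.92 to 0.19) against the control of the same time and -0.90 (-1.10 to -0.71) over all unheated cells. Cyclin F (Ccnf), a ubiquitin ligase subunit of G2, was at 24.2 CPM (0, 0 and 270) in heated cells and at 45.1 CPM (18.1, 42.4 and 71.1) in the 37 °C group, and between 45.1 and 71.9 CPM over the 6 unheated groups. Only 41.7% of the heated cells had a Ccnf UMI. Against all unheated cells its ratio was -1.30 (-1.65 to -0.94), the lowest of the members.

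Against the 37 °C group at 5 h alone, 27 members stood lower, where 63.2% of all genes did, and the median was -0.29 beside -0.23. The counts past 2-fold were close to those of all genes: 5 members lower, where 15.2% of genes were, and 2 higher, where 6.23% were. Kif4, a chromosome-bound kinesin of the midzone, stood at -1.58 (-2.20 to -0.82), Ttk at -1.43 (-2.31 to -0.27), Mad2l1 at -1.31, Ect2 at -1.16 and Incenp, the scaffold of the passenger complex, at -1.02. The mitotic kinesins were all lower, 6 of 6, with a median of -0.72, and so were the 4 passenger complex genes (median -0.30), Top2a and Mki67, and Anln and Ect2. Higher than the control were 2 of 3 mitotic kinases (median 0.32), 2 of 3 centromere genes (0.31) and 3 of 5 spindle proteins (0.13). Aurka stood at 1.76 (0.21 to 5.13), the kinetochore protein Cenpf at 1.16 and cyclin B2 (Ccnb2) at 0.93. These genes were low in the 6 control cells: over all unheated cells Aurka stood at -0.45, Cenpf at 0.30 and Ccnb2 at 0.14.

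Without 1 control cell of 37 °C, 5 h the 2-fold call ended for Incenp (-0.68 without cell 3), Ect2 (-0.91 without cell 5) and Cenpf (0.98 without cell 1). After thinning, Ect2 stood at 0.94, but the thinned control held no Ect2 UMI, so that ratio rests on the 0.5 UMI added. Without cell 4 of 37 °C, 5 h, 9 members were at least 2-fold lower and the median was -0.50, and without cell 5 the median was -0.13.

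**Figure D4:**
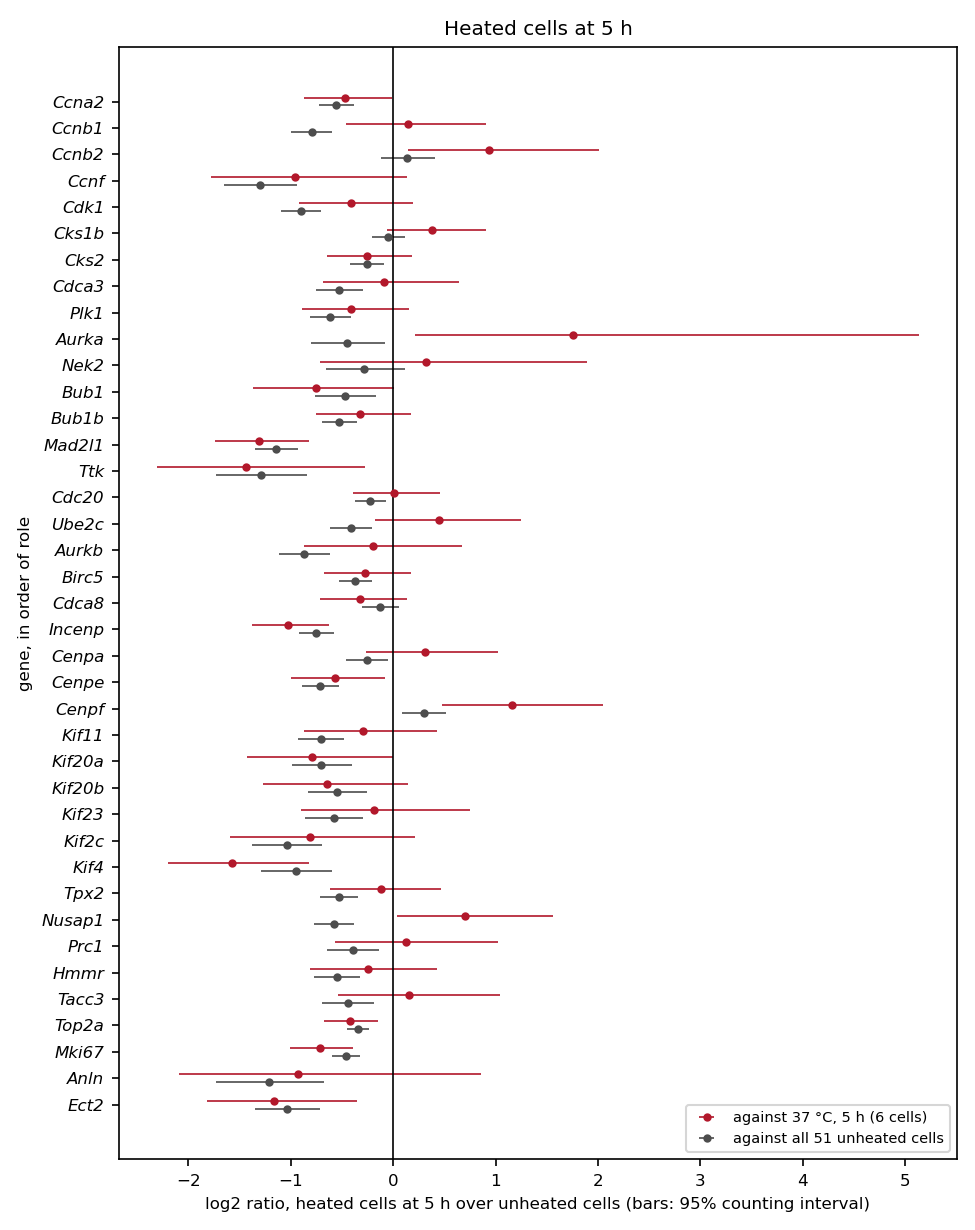
log2 ratio of heated cells at 5 h (x axis) for each member (y axis), against the 6 cells at 37 °C, 5 h (red) and against all 51 unheated cells (grey), with 95% counting intervals as bars. All grey points but those of Ccnb2 and Cenpf lie left of 0, and the red point of Aurka lies far to the right of its grey one.

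By 10 h the members stood higher than at 5 h within the heated arm. Of 39, 35 were higher, where 67.2% of all genes were, and the median was 0.42 beside 0.24 over all genes. The summed level was 0.41 higher (0.37 to 0.45). The 5 h group is the denominator of these ratios, so they share its values with those above. Of the members, 7 were at least 2-fold higher, where 14.1% of genes were: Ccnf (1.74), the actin-binding protein of the contractile ring Anln (1.25), Ttk (1.19), Cdk1 (1.14), Mad2l1 (1.02), Cks2 (1.01) and Kif4 (1.01). Cdk1 was at 206.2 CPM (0, 141.6 and 577) at 10 h, within the range of the unheated groups. Mad2l1 (0, 90.8 and 417) lay just under the 149.1 CPM of its lowest unheated group. The 4 that stood lower were Cenpf (-0.20), Ube2c (-0.14), the midzone bundler Prc1 (-0.05) and Top2a (-0.04). All 8 entry genes and all 6 kinesins stood higher, with medians of 0.61 and 0.57, while the pair of chromosome genes had a median of 0.14. With median-of-ratios scaling the median of the members was 0.20 and 13 stood lower.

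Against 37 °C at 10 h, the heated cells at 10 h had no common direction: 19 of 39 members were lower, where 49.5% of genes were, and the median was 0.02 beside 0.00. None was 2-fold lower, where 7.22% of genes were, and 1 was 2-fold higher, where 11.9% were. That gene was Aurka (1.45), which had 2 UMIs in the control, and over all unheated cells it stood at -0.27. Ccnb1 stood at 0.83, Ect2 at 0.81, Bub1 at -0.75, the spindle motor Kif11 at -0.74 and Aurkb at -0.73. Cks2, a small subunit that docks Cdk complexes on their substrates, was at 356 CPM (lowest, median and highest cell 0, 283 and 909) in heated cells and at 201.99 CPM (27.4, 235 and 366) at 37 °C. Its ratio was 0.80 (0.31 to 1.36), and it lay above all 6 unheated groups, whose highest was 254 CPM. Ccnf was the other member above all 6, where 21.5% of genes were, and Mad2l1, Birc5 and Top2a lay below all 6, where 15.4% were. The summed level stood at 0.03, at -0.25 as a mean over cells that counts each cell alike, and the median of the members at -0.20 without cell 1 of 37 °C, 10 h. The heated group at 10 h also held 5 of the 6 cells under 5000 UMIs, and leaving these out kept the direction of the median.

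At 15 h, 37 of 39 members stood lower than at 37 °C, where 51.8% of all genes did, with a median of -0.38 beside -0.02. Only 1 was at least 2-fold lower, where 2.17% of genes were. It was Plk1, at 83.5 CPM (lowest, median and highest cell 0, 43.05 and 304) in heated cells and at 204.4 CPM (0, 194.9 and 364) at 37 °C, a log2 ratio of -1.29 (-1.80 to -0.80). Plk1 lay between 110 and 204.4 CPM in the 6 unheated groups, and the heated cells at 15 h lay below them all. Kif11 stood at -0.94 and the kinetochore motor Cenpe at -0.88, and Ccnb2 (0.22), Mki67 (0.11) and Tacc3 (-0.02) were highest. In all, 8 members lay below all 6 unheated groups, where 13.3% of genes did: Plk1, Cks2, Cdca3, Mad2l1, Cdca8, Kif11, Kif2c and Anln. For 14 members no unheated group was higher than this control. Without cell 10 of this control, 29 members stood lower and the summed level stood at -0.27, beside -0.40 with all cells. Over all unheated cells the median was -0.31, and against the 45 °C arm before heating it was 0.15. From 10 h to 15 h within the heated arm the median was -0.18, and Cks2 stood at -1.13, the only member past 2-fold, where 3.88% of genes were.

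A few of the abundant members moved over a narrower range. Birc5 (survivin), of the passenger complex, lay between 205.1 and 249.5 CPM in the unheated groups and between 170.9 and 206.9 CPM in the heated ones. Top2a, the topoisomerase that untangles sister chromatids, was the member with the most UMIs, at 434 to 513 CPM unheated and 374 to 460 CPM heated, and Mki67, which coats mitotic chromosomes, at 281 to 386 CPM and 237 to 331 CPM. The heated cells at 5 h lay below all 6 unheated groups for all 3. By contrast Ccnb1 ran from 34.9 to 220 CPM across the unheated groups alone. The regulatory subunit Cks1b lay at 155.9 to 249.5 CPM unheated and 177.5 to 223.5 CPM heated, but 50.1% of its UMIs stood in values that were not whole, as arise where molecules are shared with near-identical copies, so its level is uncertain. For all members together that share was 6.40%.

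Counted at 1.5-fold, 14 of 37 members were lower before heating, where 12.8% of all measured genes were, and 13 of 38 at 1 h, where 19.6% were. The count was 12 of 39 at 5 h, a share near the 30.5% of all genes, and 5 of 39 at 10 h, where 19.2% were. At 15 h it was 13 of 39, where 12% were. Against the control of the same time, the count of members exceeded the share of all genes by more before heating and at 15 h than at 5 h, when many other genes were also lower.

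Other genes of the same pathway were read from lists of known roles. Their counts stand beside 63.2% of all genes lower and a median of -0.23 at 5 h, and 51.8% and -0.02 at 15 h. Of the other G2 and M genes, 30 of 38 measured stood lower at 5 h (median -0.46) and 28 of 36 at 15 h (-0.28), with medians of -0.23 at 1 h and 0.11 at 10 h. Hmgb2, a chromatin protein abundant in G2, was the one with the most UMIs and stood at -0.58 at 5 h. The genes that regulate mitotic transcription had a median of -0.77 at 5 h, with 13 of 17 lower, and their lowest was E2f3 (-1.52), while Rbbp4, a DREAM subunit and the most abundant, stood at -0.08. The APC/C subunits had a median of -0.04 at 5 h, with 8 of 14 lower. Condensin stood at the median of all genes (-0.22, 4 of 8 lower), with 3 genes at least 1.5-fold lower, where 30.5% of all genes were. Of the brakes on mitotic entry, 8 of 14 stood higher at 5 h (median 0.14). Of these 14, 5 were at least 2-fold higher, where 6.23% of all genes were, and 2 at least 2-fold lower, where 15.2% were. A gene could be measured through the deep heated group alone, so the count of higher ones is not read as a rise. The summed list stood at 0.14 (-0.15 to 0.46), at 427.7 CPM in heated cells at 5 h and 427.8 CPM over all unheated cells. Trp53 stood at -0.06 and the checkpoint kinase Chek2 at -2.18, and the stress gene Gadd45b had the highest ratio, at 13.7 CPM in heated cells and no UMI in the control. Its counting interval reached down to -0.18. Chek2 also had the lowest ratio of that list in the other heated groups, with -2.01 (1 h), -1.55 (10 h) and -1.35 (15 h). The median of the S phase genes was -0.26 (5 h), -0.08 (10 h) and 0.23 (15 h). Rrm2, a ribonucleotide reductase subunit, had their lowest ratio at 5 h (-1.81).

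Within the heated cells at 5 h, the members varied together. The median Spearman rho over the 741 pairs of members, on log2(CPM+1), was 0.30, and 740 pairs were above 0. In the 52 heated cells at 10 h it was 0.38. Cells share a library type and differ in depth, and the summed members had a rho of 0.46 with total UMIs at 5 h, and of 0.42 after thinning. At 10 h these were 0.54 and 0.40. After thinning to 5000 UMIs, as the mean of 10 draws, the median rho at 5 h was 0.08 with 705 pairs above 0. In the 47 cells left at 10 h it was 0.10 with 669 pairs above 0. Both are smaller values at equal and lower depth. The closest pairs at 5 h were Plk1 with Nusap1 (0.68), Ccnb1 with Plk1 (0.68) and Cdc20 with Cenpa (0.67). After thinning these pairs had 0.30, 0.29 and 0.27, and Ube2c with Nusap1 had 0.32. Against the sum of the other members, Nusap1 (0.80), Plk1 (0.78) and Bub1b (0.73) stood highest and Ttk (0.16), Anln (0.25) and Ccnb2 (0.28) lowest. The order differed in a single thinning draw, where Cdc20 (0.49), Ube2c (0.47) and Cenpe (0.39) stood highest, and Nusap1 had 0.34, Plk1 0.33 and Bub1b 0.36. That draw held few UMIs per cell, with a mean of 0.44 for Nusap1 and 0.36 for Plk1.

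The summed members and the summed S phase genes had a rho of -0.41 across the heated cells at 5 h, and of -0.32 after thinning. Cenpa (-0.54), Cdc20 (-0.53) and Ube2c (-0.52) were furthest below 0 with S phase, and Top2a (0.03), Cdk1 (-0.06) and Ttk (-0.06) near 0. In the heated cells at 10 h the rho of the sums was 0.20, and -0.0049 after thinning, and there a group of cells low in both sums was visible. There the rho with total UMIs was 0.54 for the members and 0.39 for the S phase genes. Of the cells low in both, cells 2, 7, 17 and 38 had under 5000 UMIs in total, while cells 21 and 35 had 11490.5 and 11379. The part of depth was not tested. The 2 sums share each cell's total, which ties them.

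**Figure D5:**
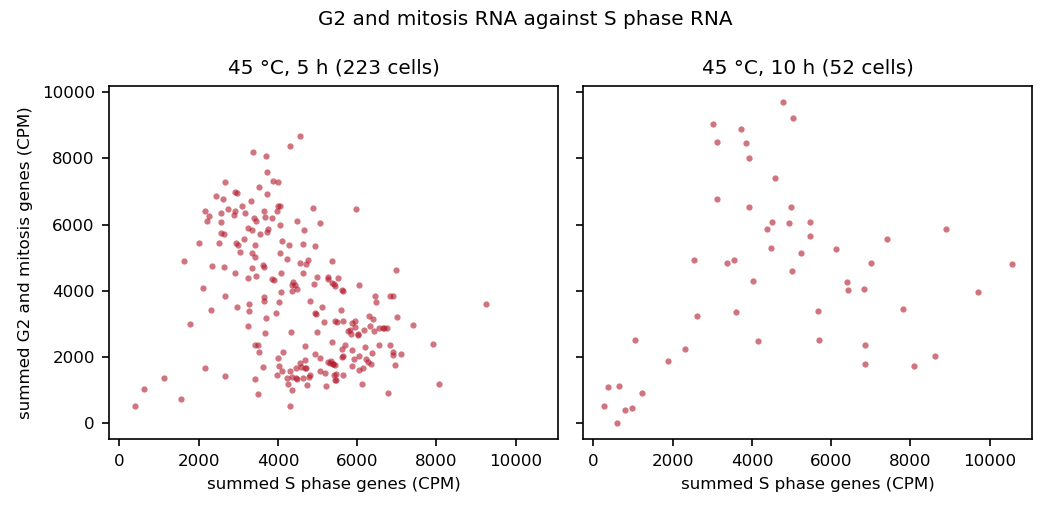
Summed level of the 39 G2 and mitosis genes (y axis, CPM) against that of the S phase genes (x axis, CPM), with 1 point per heated cell at 5 h (left) and 10 h (right, 52 cells). At 5 h the cells high in one sum tend to be low in the other. At 10 h several cells lie near the origin, some of them with under 5000 UMIs in total.

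Spread between cells was described by the Fano factor, the variance over the mean of the thinned UMIs. At 5 h it was 5.71 for the sum of the members, at a mean of 18.7 UMIs per cell, and 1.76 for Cdc20. The 12 members with a mean of at least 0.5 UMI had a median of 1.25, beside 1.13 over the 1485 genes that passed. At 15 h the sum had 7.97 and Top2a 2.67.

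Among 2227 other genes with a mean of at least 2 UMIs per heated cell at 5 h, the one most like the summed members was the alpha-tubulin Tuba1c (rho 0.75, and 0.79 at 10 h), where the median gene had 0.06. It was followed by Arl6ip1 (0.68), Hmgb2 (0.66), the beta-tubulin Tubb4b (0.64), Bub3 (0.63), Tuba1b (0.60), Jpt1 (0.59), Kpna2 (0.58), Racgap1 (0.58) and Tubb5 (0.57). In a single thinning draw Tuba1c had a rho of 0.46, and the other 9 had 0.30 (Racgap1) to 0.41 (Tubb4b). Hmgb2, Kpna2 and Racgap1 were on the list of other G2 and M genes.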

How the data were processed

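The authors deposited a table of estimated counts of molecules per gene and cell, unscaled, of which 5.30% of the values above 0 were not whole. Per the submitters' processing notes, STAR and mm10 were used, with no version named. Not given in the sources used here are the molecule counter, its annotation and a cell filter. The spike-in RNA of the labels' protocol was not analysed here. UMIs were summed over the cells of a group, rounded and divided by the group's total (CPM). For log2 ratios 0.5 UMI was added to both sums, with the exact conditional binomial (Clopper-Pearson) interval at 95%. Levels have Poisson intervals. A gene was measured with at least 20 UMIs over both groups and 10 CPM in 1 of them. Called means at least 2-fold (second rule 1.5-fold) or outside the range of the 6 unheated groups. The same rules over all measured genes gave the share printed beside each count. Each group was 1 sample, so no p-value was computed. Depth limits the small groups most: 3 UMIs, the floor for a gene at 0, came to 0.441 CPM at 45 °C, 5 h and 17.3 CPM at 37 °C, 10 h. All 39 members were accounted for. Named with values were the 3 highest and 3 lowest ratios per comparison, those past 2-fold and the most abundant, and a few more for their role. Members, lists and rules were chosen with earlier results of these data known. Leaving out cells under 5000 UMIs was an alternative chosen after seeing the data. The ratios and intervals were run on simulated sums with Poisson counting error, the error they assume. That run checked the calculation, not how cells or cultures vary. Python 3.11.15, numpy 2.4.6, pandas 2.3.3, scipy 1.17.1 and matplotlib 3.10.9 were used.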

Additional observations from a re-analysis of the deposited data

Results flagged for a closer look

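In groups of 6 cells, the summed level of each role and of all members was checked for a single cell far from the others by Dixon's 95% critical value, 30 checks in all, of which chance flags about 1 in 20. Cell 5 of 37 °C, 10 h held 1298 CPM of the spindle checkpoint and APC/C genes, and the next cell 789 CPM. Cell 6 of the 45 °C arm before heating held 1286 CPM of the chromosomal passenger complex genes, and the next cell 707 CPM.

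For 3 members, the ratio of 45 °C over 37 °C lay on opposite sides of 0 at different times, with each counting interval clear of 0. The differences between times were not tested. Ccnb1 stood at 0.83 at 10 h and at -0.64 at 1 h. Cks2 stood at 0.80 at 10 h, at -0.85 at 1 h and at -0.64 at 15 h. Aurka stood at 1.76 at 5 h and at -1.45 at 1 h, and its control at 5 h held 2 UMIs.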

How the results depend on the processing

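No paired analysis was possible because no test was run and the numbers in the titles name cells, not cultures. Of 491 values over the members under other settings, 408 stayed close to the main value, 75 moved and 8 were reversed. Staying close does not mean that the sign was kept. A small ratio could switch sign and still stay close, and a count of members has no direction. Of 575 values of single members, 536 stayed close, 35 moved and 4 were reversed, which for them means a switch of sign from a main ratio of at least 2-fold. All of the following are of the members. Where fewer members are lower under thinning or the 100 UMI minimum, fewer were measured. The numbers measured and the shares of all genes under these settings are not given here, so their counts cannot be set beside the main ones. Thinning here was a single seeded draw, and its 2-fold counts in small groups rest on few UMIs. For the other moves the cause was not tested.

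With every cell thinned to 5000 UMIs, the summed members of 45 °C over 37 °C stood at -0.63 (-1 h), -0.59 (1 h), -0.73 (5 h) and -0.14 (10 h). The number lower was 5 (-1 h), 9 (1 h) and 13 (15 h), that 2-fold lower 1 (-1 h), 12 (5 h), 3 (10 h) and 2 (15 h), and that 2-fold higher 3 (10 h). Ect2 at 5 h stood at 0.94, with no UMI in the thinned control. Of 37 °C over -1 h, 3 (1 h), 1 (5 h), 3 (10 h) and 6 (15 h) were lower, and the median was 0.33 (5 h) and 0.026 (10 h). In the 45 °C arm, 1 was lower at 1 h over -1 h and 8 at 10 h over 5 h.

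As a mean of the CPM of each cell, the summed members stood at -0.56 (-1 h), -0.49 (1 h), -0.48 (5 h) and -0.25 (10 h), with 12 (-1 h) and 7 (1 h) members 2-fold lower and 1 (5 h) 2-fold higher. The median of 37 °C at 15 h over -1 h was -0.018, and 8 were lower in the 45 °C arm at 10 h over 5 h, as were 7 with whole-number values only. With at least 100 UMIs, 13 (-1 h), 16 (1 h) and 9 (10 h) were lower, 3 (-1 h) and 1 (1 h) 2-fold lower and 0 (10 h) 2-fold higher. Of 37 °C over -1 h, 10 (1 h), 12 (5 h), 12 (10 h) and 9 (15 h) were lower, and 3 of the 45 °C arm at 1 h over -1 h.

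Median-of-ratios scaling moved every gene by 0.15 (5 h), 0.20 (10 h) and 0.10 (15 h). The summed members then stood at -0.12, 0.23 and -0.30, with 12 lower and 4 at least 2-fold higher at 10 h, and 13 lower in the 45 °C arm at 10 h over 5 h. Against all 6 unheated groups the summed members stood at -0.48 (5 h) and -0.25 (15 h), 0 were 2-fold higher at 5 h and 10 h and 0 2-fold lower at 15 h, and Aurka stood at -0.45 (5 h) and -0.27 (10 h). Against the 45 °C group before heating, the median was 0.21 (1 h) and 0.15 (15 h), and the sum 0.092 (1 h), -0.11 (5 h), 0.30 (10 h) and 0.11 (15 h). There 14 (1 h) and 13 (15 h) were lower, 1 (1 h) and 0 (15 h) 2-fold lower, 2 (1 h), 1 (5 h), 4 (10 h) and 1 (15 h) 2-fold higher, and Cdc20 stood at 0.36 (1 h).

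Leaving out each cell in turn, the summed members ran from -0.69 (without cell 6 of the 45 °C arm) to -0.32 (cell 4) at -1 h, from -0.52 (heated cell 1) to -0.28 (heated cell 7) at 1 h, from -0.44 (control cell 4) to -0.13 (control cell 3) at 5 h and from -0.094 (control cell 1) to 0.14 (control cell 5) at 10 h. The members 2-fold lower numbered 5 to 15 (-1 h), 3 to 9 (1 h), 4 to 9 (5 h), 0 to 2 (10 h) and 1 to 3 (15 h), and those 2-fold higher 1 to 4 at 5 h (4 without control cell 5) and 1 to 4 at 10 h (4 without control cell 6). At 15 h the summed members ran from -0.49 (heated cell 3) to -0.27 (control cell 10), and the members lower from 29 (control cell 10) to 38 (heated cell 3). The median of 37 °C at 15 h over -1 h ran from -0.017 (without cell 5 of -1 h) to 0.23. Members lower numbered 12 to 24 for 37 °C at 1 h over -1 h, and in the 45 °C arm 6 (without cell 6 of -1 h) to 19 (without cell 1 of 1 h) at 1 h over -1 h, and 20 to 32 at 5 h over 1 h.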
